A study of Mus musculus with 46 samples.

Results

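The 7 miRNAs described here, mmu-miR-126a-3p, mmu-miR-126a-5p, mmu-miR-143-3p, mmu-miR-145a-5p, mmu-miR-199a-3p, mmu-miR-199a-5p and mmu-miR-214-3p, are mouse miRNAs (prefix mmu, left out below) known from blood vessels and connective tissue. They were taken by name from the value table and make up 7 of the 1881 miRNAs on the array. A miRNA was tested if the scanner software called it detected on at least 5 arrays, which 815 miRNAs passed, these 7 among them. miR-126a-3p, miR-126a-5p, miR-143-3p and miR-199a-3p were detected on all 45 arrays. miR-145a-5p and miR-199a-5p were each detected on 41 arrays, and miR-214-3p on 29.

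A miRNA is a short RNA cut from a hairpin precursor, whose left and right strands are named -5p and -3p, and it lowers the output of messenger RNAs that pair with its seed. miR-126 lies within Egfl7, a gene of endothelial cells, and is known for its part in the growth and integrity of vessels. miR-143 and miR-145 come from one precursor transcript, Carmn, and are known for the contractile state of smooth muscle. miR-199a and miR-214 are made from the transcript Dnm3os and are known from fibroblasts and other mesenchymal cells.

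Mature sequences from RefSeq (GRCm38.p6) are shown for the members that the results turn on. The second strand of the miR-214 hairpin, which moved the other way in liver at room temperature, is shown too. Capitals mark the seed, bases 2 to 8.
miR-126a-3p: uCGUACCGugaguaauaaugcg
miR-199a-3p: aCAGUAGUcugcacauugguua
miR-199a-5p: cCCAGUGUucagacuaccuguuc
miR-214-3p: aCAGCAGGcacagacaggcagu
miR-214-5p: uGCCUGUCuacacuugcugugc
miR-126a-3p lies at chr2:26591402-26591423 on the plus strand, within the bounds of Egfl7. Its seed was shared by no other of the 1679 mature miRNA names in the table. miR-199a-3p is encoded at chr1:162217883-162217904 on the plus strand, inside Dnm3os and Dnm3, and again at chr9:21496498-21496519 on the minus strand, inside Dnm2. miR-199a-5p comes from the same hairpins, at chr1:162217844-162217866 and chr9:21496537-21496559. miR-199b-3p, at chr2:32318524-32318545 inside Dnm1, has the same 22 bases as miR-199a-3p and no probes of its own on the array, so the miR-199a-3p signal cannot be assigned to one of the 3 loci. miR-214-3p lies at chr1:162223438-162223459, also inside Dnm3os, and shares its seed with miR-761. Of the 7 members, 4 had a mature sequence that is printed here.

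The tissues were heart, liver and brain of male C57BL6 mice of an Il1a knock-out strain. Every group therefore lacked interleukin-1 alpha, and the age of the mice is not given in the sources used here. Each organ was cut into 8 parts that were left at 4 °C or at room temperature (RT, 18 to 20 °C) for 0, 1, 3, 6, 12, 24, 48 or 96 h before the RNA was preserved. One animal per temperature was hybridised, all 8 parts of an organ on 1 slide, which means that within a tissue the animal, the slide and the temperature cannot be told apart. Arrays of a group are therefore parts of 1 organ, and p-values measure the spread between such parts, not between animals.

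The first heart part at 4 °C (0 h) was left out, following the methods. The 45 remaining arrays lay on 6 slides, 15 of heart, 14 of liver and 16 of brain. The 2 liver parts of 6 h and 96 h at 4 °C were not analysed here. Between 268 and 798 miRNAs were detected per array, with summed signals of 153088 to 541770 scanner units and 0 saturated miRNA spots. RNA integrity number (RIN), a score in which a higher value means more intact RNA, ran from 7.3 to 8.7 in brain at 4 °C and from 8.1 to 8.8 in heart at 4 °C. On the liver slide at RT it fell from 7.1 to 2.3, on the heart slide at RT from 9 at 0 h to 2.2 at 96 h, and on the brain slide at RT from 8.4 to 3.3. The labelled tissues carried their own marker miRNAs, since the 4 cardiac muscle miRNAs were detected on all heart arrays, the 2 hepatocyte miRNAs on all liver arrays and the 3 neuron miRNAs on all brain arrays. Of the 4 cardiac muscle miRNAs, 0 were detected on a liver array at 4 °C, at most 2 on a liver array at RT and at most 3 on a brain array. For the other lists, detection alone did not separate the tissues. Both hepatocyte miRNAs were also detected on all heart arrays and all brain arrays at 4 °C, with array means of at most 6.50. Their means in liver were 9.38 to 13.76. All 3 neuron miRNAs were detected on some heart and liver arrays at RT, with means of at most 3.71, against 11.64 to 13.56 in brain. Both liver arrays of 0 h stood low in the members, as given below.

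All values are log2 values after variance stabilizing normalization (VSN). Levels of different miRNAs are read by different probes and are not set against each other here. In such bulk RNA, fewer cells of a type and less RNA per cell cannot be told apart.

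The first question was in which tissue each miRNA was most abundant, asked on the 33 arrays with RIN over 6 (13 of heart, 6 of liver, 14 of brain). All 7 miRNAs were higher in heart than in liver and higher in heart than in brain. Between liver and brain, the endothelial miRNAs were not called, the smooth muscle miRNAs were lower in liver and the fibroblast miRNAs were higher in liver.

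For the endothelial miRNA miR-126a-3p, values ran from 11.87 to 12.73 in heart with a median of 12.35. In liver they ran from 8.10 to 10.71 with a median of 10.10, and in brain from 9.44 to 10.97 with a median of 9.90. Every heart array lay above every liver and brain array, while liver and brain overlapped. miR-126a-3p was 5.61-fold higher in heart than in liver (log2 difference 2.49 ± 0.24 SE, limma adjusted p = 1.13e-10) and 5.17-fold higher than in brain (2.37 ± 0.19, adjusted p = 3.79e-13). Its partner strand miR-126a-5p gave 4.95-fold and 5.44-fold. Between liver and brain, the log2 differences of -0.12 ± 0.24 for miR-126a-3p and 0.14 ± 0.27 for miR-126a-5p did not pass the test.

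In the smooth muscle pair, miR-143-3p ran from 8.48 to 9.31 in heart (median 9.01), from 4.28 to 6.71 in liver (median 6.26) and from 6.10 to 7.09 in brain (median 6.58). miR-145a-5p ran from 6.53 to 7.69 in heart (median 7.29), from 2.32 to 4.50 in liver (median 3.32) and from 3.31 to 5.27 in brain (median 4.62). For both, the heart arrays stood apart from the rest and the liver and brain arrays overlapped. The heart excess over liver was 8.41-fold for miR-143-3p and 14.7-fold for miR-145a-5p, and over brain it was 5.51-fold and 6.35-fold. Both were called lower in liver than in brain, by log2 differences of -0.61 ± 0.23 (adjusted p = 0.0193) and -1.21 ± 0.28 (adjusted p = 0.000256).

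The fibroblast miRNAs were higher in heart than in liver and higher in liver than in brain. miR-199a-5p ran from 6.70 to 7.86 in heart (median 7.14), from 4.24 to 5.82 in liver (median 5.51) and from 1.84 to 3.05 in brain (median 2.29), 3 ranges that did not touch. miR-199a-3p ran from 8.28 to 9.41 in heart (median 8.73), from 5.05 to 7.76 in liver (median 7.07) and from 3.20 to 5.38 in brain (median 4.01). miR-214-3p ran from 4.32 to 5.70 in heart (median 5.08), from 2.02 to 4.25 in liver (median 3.23) and from 0.34 to 2.01 in brain (median 1.17), and its tissues did not overlap either. Heart exceeded brain 28.3-fold for miR-199a-5p (log2 4.82 ± 0.17, adjusted p = 8.58e-24), 26.6-fold for miR-199a-3p and 13.7-fold for miR-214-3p. Liver exceeded brain 7.32-fold, 6.56-fold and 3.86-fold in the same order. In brain, miR-214-3p was detected on 1 of 14 such arrays and miR-199a-5p on 10 of 14, so these folds rest on measured brain values that were mostly below the detection call for miR-214-3p and near it for miR-199a-5p.

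**Figure D1:**
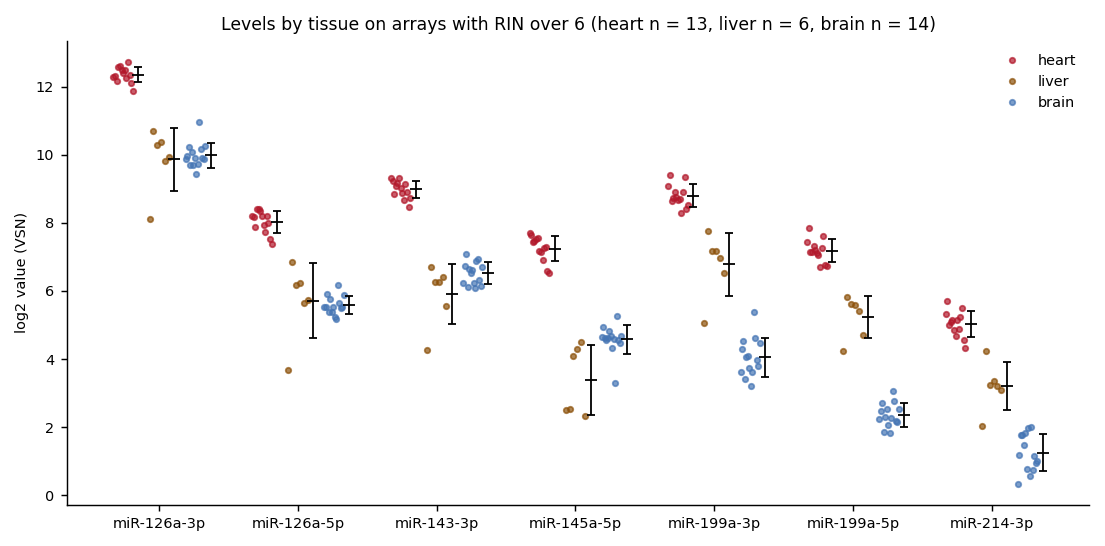
Log2 VSN value (y axis) of each of the 7 miRNAs on the arrays with RIN over 6. Points are single arrays of heart (n = 13), liver (n = 6) and brain (n = 14), and black bars give the mean ± SD. All heart points of a miRNA lie above its liver and brain points, and the lowest liver point of 6 of the miRNAs is the 0 h array at 4 °C.

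The share of all 815 miRNAs whose tissue ranges did not overlap was not counted, so the gaps between ranges given above are a description. Calls were common in these contrasts. Higher in heart than in liver were 7 of 7 members and 44.9% of all 815 miRNAs. Higher in heart than in brain were 7 of 7 members and 22% of all. Liver exceeded brain for 3 of 7 members and 14.6% of all, and was below it for 2 of 7 members and 57.9% of all. The median over all 815 miRNAs was 0.60 for heart minus liver, -0.44 for heart minus brain and -1.11 for liver minus brain, against 2.31, 2.67 and 0.14 over the 7. The heart results held at 7 of 7 under every alternative run. In the liver and brain contrast, the direction of miR-126a-3p and miR-143-3p changed with the scaling. With quantile normalization both were higher in liver, by 1.43 and 1.15, and miR-145a-5p moved from -1.21 to 0.18. Without the liver 0 h arrays, miR-143-3p lost its call (-0.11, adjusted p = 0.596) and miR-126a-5p gained one (0.64, adjusted p = 0.00429).

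The second question was how the miRNAs changed with storage. At 4 °C none of the 7 changed by the test. Their slopes over 21 arrays, with tissue as a term, ran from -0.08 ± 0.10 log2 per 24 h for miR-145a-5p to 0.04 ± 0.11 for miR-214-3p, with 0.00 ± 0.10 for miR-126a-3p. The count was 0 of 7 by limma at an adjusted p under 0.05 and 0 of 7 at an unadjusted p under 0.05, where 12% of all miRNAs were called. With quantile normalization 1 member, miR-199a-5p, was called lower at 4 °C (adjusted p = 0.0435).

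On the heart slide at 4 °C, from 1 to 96 h, miR-126a-3p stayed between 12.17 and 12.61, miR-143-3p between 8.86 and 9.31 and miR-199a-3p between 8.64 and 9.41. In brain at 4 °C miR-126a-3p stayed between 9.44 and 10.24. The liver slide at 4 °C was uneven. Its 0 h array held 8.10 of miR-126a-3p, 4.28 of miR-143-3p and 5.05 of miR-199a-3p, below all later values of 9.82 to 10.71, 6.25 to 6.71 and 6.97 to 7.76. That array had the fewest detected miRNAs, 268, at a RIN of 9.1. miR-145a-5p behaved differently there, with 2.50, 2.54 and 2.57 at 0, 1 and 48 h and 4.10, 4.31 and 4.50 at 3, 12 and 24 h.

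At RT all 7 fell with time. Over 24 arrays the slopes were -0.76 ± 0.15 log2 per 24 h for miR-126a-3p (adjusted p = 0.000151), -0.61 ± 0.15 for miR-126a-5p, -0.60 ± 0.15 for miR-199a-3p, -0.55 ± 0.13 for miR-199a-5p and -0.53 ± 0.14 for miR-143-3p. miR-214-3p at -0.34 ± 0.13 and miR-145a-5p at -0.33 ± 0.09 had the shallowest slopes. The 7 of 7 called lower stand beside 37.3% of all 815 miRNAs called lower and 41% called higher, and the median slope was -0.55 over the 7 and 0.07 over all. Without liver, 6 of 7 were still called, the exception being miR-214-3p (-0.00376 per hour, adjusted p = 0.455). Without any scaling between arrays the median slope of all miRNAs rose to 0.0168 log2 per hour, and only miR-126a-3p of the 7 stayed called (-0.0164 per hour, adjusted p = 0.0306). On that scale miR-145a-5p and miR-214-3p had slopes just above 0.

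The difference between the RT and the 4 °C slope was itself called for 5 of 7 members, all steeper at RT, where 52.6% of all miRNAs were called and 28% in that direction. It was -0.77 ± 0.20 log2 per 24 h for miR-126a-3p (adjusted p = 0.00284), -0.64 ± 0.20 for miR-126a-5p, -0.54 ± 0.19 for miR-143-3p, -0.52 ± 0.20 for miR-199a-3p and -0.47 ± 0.17 for miR-199a-5p. miR-214-3p at -0.38 ± 0.18 (adjusted p = 0.0678) and miR-145a-5p at -0.25 ± 0.13 (adjusted p = 0.103) were not called. Without liver, the call remained for miR-126a-3p and miR-126a-5p alone.

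**Figure D2:**
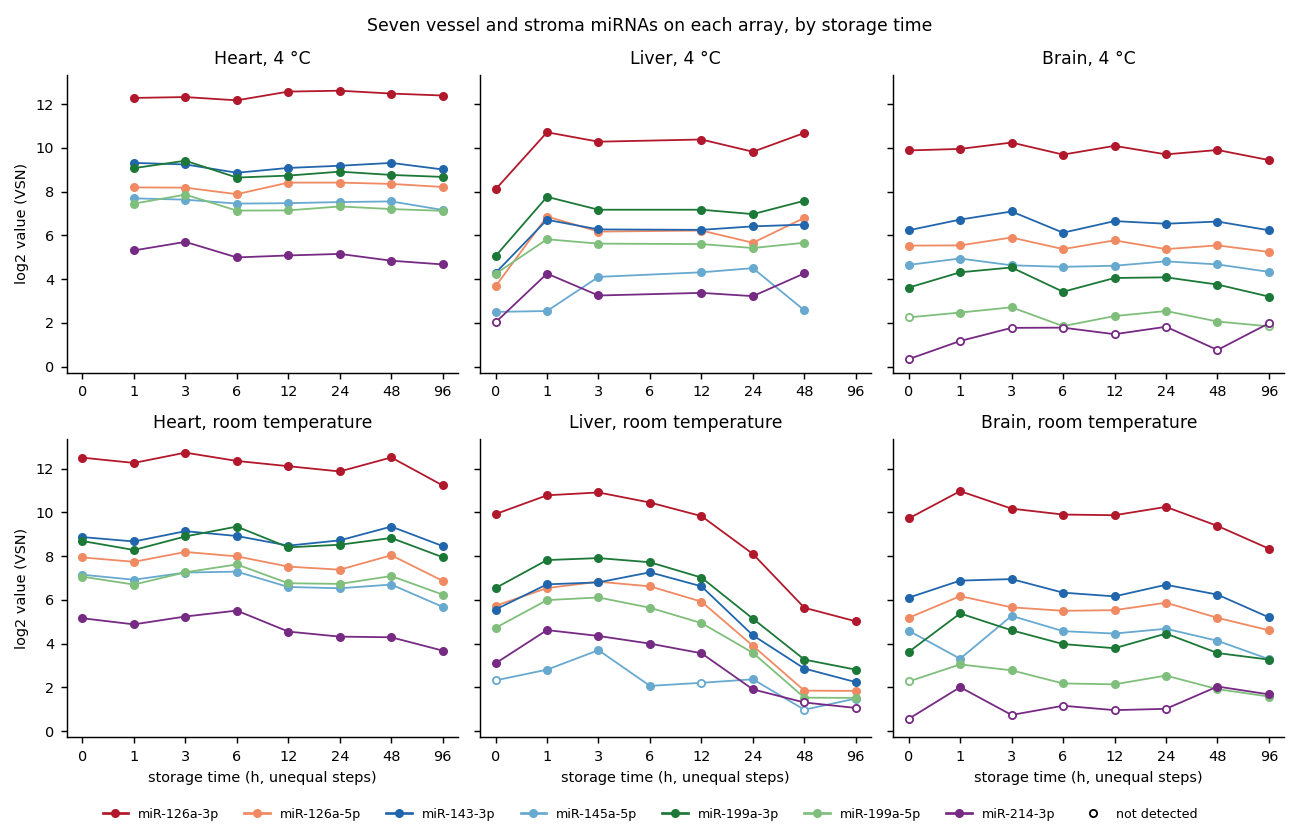
Log2 VSN value (y axis) of the 7 miRNAs against storage time in hours (x axis, unequal steps), 1 array per point. Columns are tissues, rows are 4 °C and room temperature, and open circles mark arrays on which the miRNA was not detected. Most lines are flat at 4 °C apart from the low liver array of 0 h, and in liver at room temperature they drop after 12 h.

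The fall at RT was steepest in liver. Within the 8 arrays of that slide the slopes were -1.57 ± 0.24 log2 per 24 h for miR-126a-3p (adjusted p = 0.00269), -1.34 ± 0.27 for miR-126a-5p, -1.34 ± 0.25 for miR-199a-3p, -1.23 ± 0.25 for miR-143-3p, -1.19 ± 0.25 for miR-199a-5p and -0.84 ± 0.22 for miR-214-3p. These 6 of 7 were called lower, as were 25.2% of all miRNAs on that slide, and miR-145a-5p was not (-0.39 ± 0.20, adjusted p = 0.125). miR-145a-5p was detected on 4 of the 8 arrays there, and its summed signal never passed 9.22 scanner units. The part of this low signal in the missing call was not tested.

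In heart at RT, 2 of 7 were called lower, miR-214-3p (-0.38 ± 0.10 per 24 h, adjusted p = 0.0116) and miR-145a-5p (-0.34 ± 0.09, adjusted p = 0.0119), against 20.7% of all miRNAs. For miR-145a-5p in heart the values were 7.15, 6.92, 7.25, 7.29, 6.59, 6.53, 6.70 and 5.68 from 0 to 96 h. The 4 parts from 12 h on all lay below the 4 earlier ones, a gap whose share among all miRNAs was not counted. In brain at RT, 2 of 7 were called lower, miR-126a-3p (-0.46 ± 0.12, adjusted p = 0.0139) and miR-143-3p (-0.31 ± 0.12, adjusted p = 0.0427), against 20.2% of all. miR-126a-3p in brain read 9.72, 10.97, 10.17, 9.90, 9.87, 10.25, 9.38 and 8.34 over the 8 times. The 1 h part was the highest for miR-126a-3p and, at 3.31, nearly the lowest for miR-145a-5p, whose 96 h value was 3.29. miR-214-3p had a slope above 0 in brain at RT, 0.20 ± 0.14 per 24 h, which was not called (limma adjusted p = 0.229). It was detected there at 1, 48 and 96 h only. On the 4 °C slides no member was called, beside 9.45% of all miRNAs in heart, 0% in liver and 4.29% in brain.

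**Figure D3:**
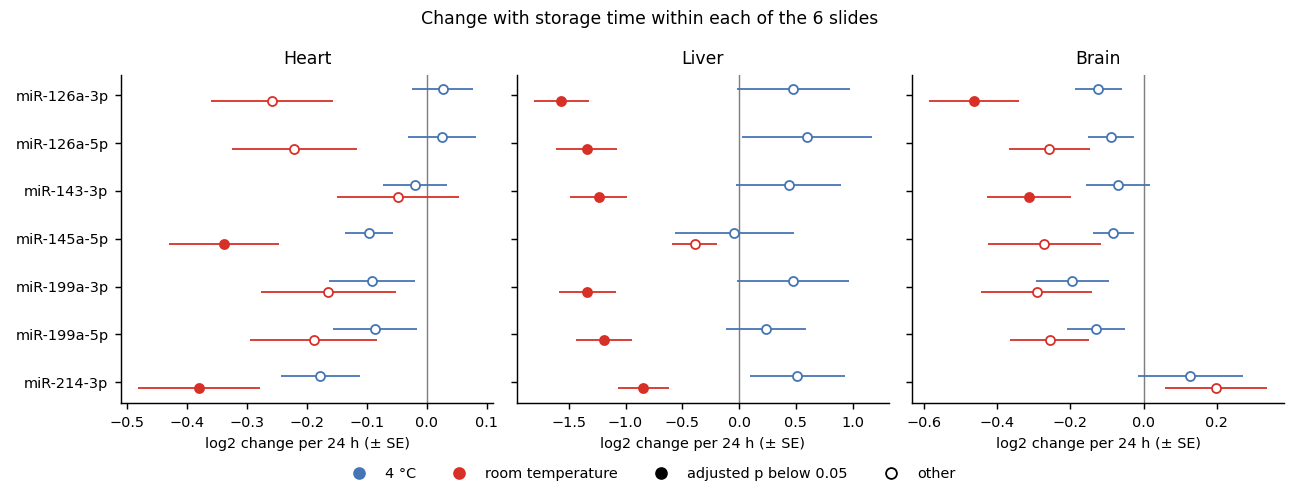
Slope of the log2 VSN value in log2 units per 24 h (x axis, whose range differs between panels), with SE bars, for each miRNA within each of the 6 slides. Blue marks 4 °C and red room temperature, and filled points have an adjusted p under 0.05. In liver 6 of the 7 red points are filled and lie between -1.57 and -0.84, and no blue point is filled in any tissue.

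The difference of the RT slopes between tissues was tested on its own. An F test of the tissue and hours interaction called 6 of 7 members, all but miR-145a-5p, where 24.5% of all miRNAs were called. Between pairs of tissues, liver was steeper than heart for 5 of 7 members, beside 17.2% of all miRNAs called in that direction. The difference was -1.31 ± 0.24 log2 per 24 h for miR-126a-3p (adjusted p = 0.000749), and miR-214-3p (-0.46 ± 0.23, adjusted p = 0.162) and miR-145a-5p (-0.05 ± 0.22) were not called. Liver was steeper than brain for 6 of 7, beside 17.9% of all, with -1.10 ± 0.24 for miR-126a-3p and -1.04 ± 0.23 for miR-214-3p. Heart and brain did not differ by the test for any of the 7, nor for any of the 815 miRNAs (0%). Their slope differences over the 7 ran from -0.58 ± 0.23 for miR-214-3p to 0.27 ± 0.24 for miR-143-3p.

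In the liver parts at RT, RIN and the miRNA levels dropped at different times. RIN was 7.1, 6, 4.1, 2.8, 2.7, 2.7, 2.4 and 2.3 from 0 to 96 h, so that most of its fall came within the first 6 h. miR-126a-3p read 9.92, 10.78, 10.91, 10.45, 9.83, 8.10, 5.64 and 5.02 at the same times. The 3 parts of 24, 48 and 96 h lay below all 5 earlier ones. This split was taken from the values themselves, and the share of all 815 miRNAs split the same way was not counted. Such gaps on this slide, here and below, are therefore a description. At one and the same RIN of 2.7, the 24 h part held 8.10 and the 12 h part 9.83.

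miR-199a-3p, miR-143-3p and miR-214-3p kept that shape. miR-199a-3p read 6.54, 7.82, 7.91, 7.72, 7.02, 5.14, 3.27 and 2.81. miR-143-3p read 5.56, 6.71, 6.80, 7.26, 6.62, 4.38, 2.86 and 2.24. miR-214-3p read 3.10, 4.62, 4.35, 4.00, 3.56, 1.91, 1.31 and 1.06, and was no longer detected at 48 and 96 h. In each of these 3 the 0 h part stood below the parts of 1 to 12 h, and the last 3 parts stood below all 5 earlier ones. miR-145a-5p did not, reading 2.32, 2.81, 3.70, 2.07, 2.21, 2.37, 0.98 and 1.49. Its signal at 1 and 6 h came from 1 of its 2 probes, and at the other times from both. That probe gave 3.957, 5.801 and 4.292 units at 1, 3 and 6 h. The miR-214-3p values at 0 and 24 h also rest on 1 probe. The part of this switch of probes in the shapes was not tested.

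Before any scaling, the scanner signals of the members other than miR-145a-5p peaked at 6 h, and the fresh part lay below the 24 h part. miR-126a-3p gave 485.7 units in the fresh part, rose to 1779 by 6 h, and had dropped to 500 by 24 h and to 77.96 by 96 h, which is 4.38% of the 6 h signal. The summed signal of all detected miRNAs on those 0, 6, 24 and 96 h arrays was 210659, 518162, 319493 and 541770 units. The unscaled signals and shares given here include that change of the whole array. Of the 6 h signal, 5.25% was left at 96 h for miR-143-3p, 5.94% for miR-199a-3p, 5.92% for miR-126a-5p, 8.95% for miR-199a-5p and 18.9% for miR-214-3p. Against the fresh part, the shares left at 96 h were larger, 16.1% for miR-126a-3p, 34.3% for miR-199a-3p and 44.1% for miR-143-3p. The 96 h signals of miR-126a-5p and miR-199a-5p came from 1 probe, the earlier ones they are set against from 2. Their shares of the 6 h signal are therefore too low, as are those of the fresh signal (28.2% and 44.1%). The fresh signal of miR-214-3p came from 1 probe and the 96 h signal from 2, so no share is given. Its probes went from 1.29 to 0.9959 and from 3.663 to 2.665 units between 0 and 96 h. Both probes of miR-126a-3p fell, from 748 to 32.98 units and from 1031 to 44.98 units between 6 and 96 h. Over all 815 miRNAs the median log2 change from 6 to 96 h was -0.18, and 20 of them fell by more than miR-126a-3p, which fell by 5.43. That rank depends on the starting level. miR-126a-3p read 10.45 at 6 h, and miRNAs nearer the detection limit, such as miR-214-3p at 4.00, have less room to fall. More miRNAs were detected on the late arrays, 726 at 96 h against 310 at 0 h.

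**Figure D4:**
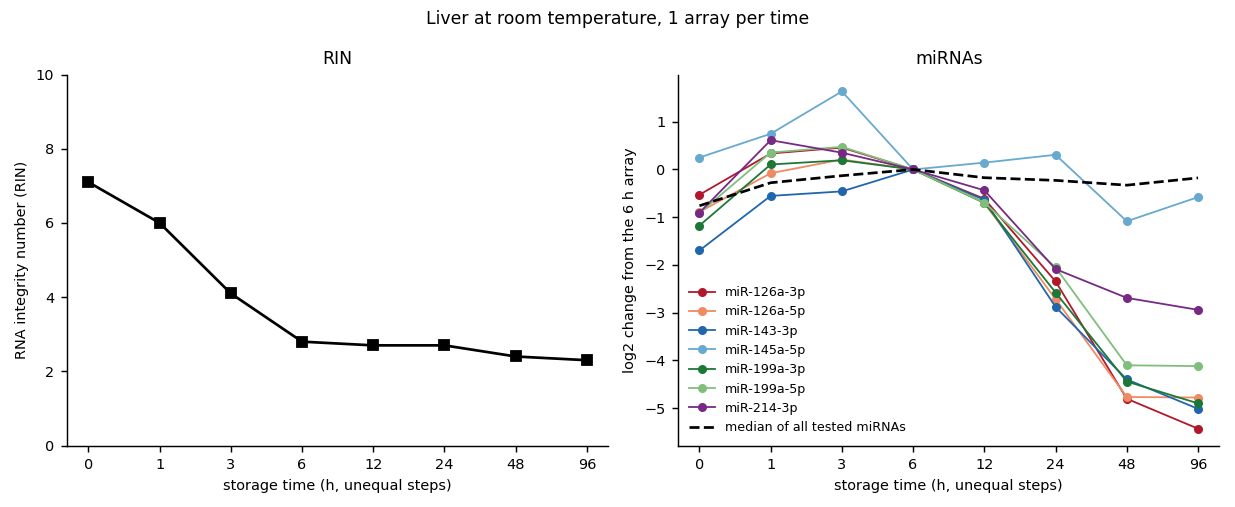
Left, RIN of the 8 liver parts at room temperature against storage time in hours (unequal steps). Right, log2 change of each of the 7 miRNAs from the 6 h array, with the median of the 815 tested miRNAs dashed. RIN reaches 2.8 by 6 h, whereas the miRNAs other than miR-145a-5p lie 0.44 to 0.70 below their 6 h value at 12 h and 2.05 to 2.88 below it at 24 h.

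Markers of other cells moved on the same slide. The mean of the 3 white blood cell miRNAs went from 5.36 at 0 h to 1.50 at 96 h, that of the 3 red blood cell miRNAs from 5.68 to 3.52 and that of the 2 hepatocyte miRNAs from 13.15 to 9.38. The mean of the 3 neuron miRNAs did not follow, with 0.38 at 0 h, up to 3.71 in between and 0.02 at 96 h. That of the 4 cardiac muscle miRNAs went from 0.31 to -0.76. The hepatocyte miRNA miR-122-5p held 14.72 to 15.47 up to 12 h and 11.19 to 13.13 afterwards, and the white blood cell miRNA miR-223-3p held 6.14 to 7.22 and then 2.55 to 4.41. Across RT storage in the 3 tissues, 3 of 3 white blood cell, 2 of 3 red blood cell, 2 of 2 hepatocyte, 2 of 3 neuron and 2 of 4 cardiac muscle miRNAs were called lower. Of all 815 miRNAs, 37.3% were. Their part in the members' fall was not tested.

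The opposite strand of miR-214 was an exception in liver at RT, where the slopes of all 7 members lay below 0. The RefSeq hairpin (chr1:162223368-162223477, plus strand) is shown with both mature strands in capitals, miR-214-5p at bases 30 to 51 and miR-214-3p at bases 71 to 92.
Mir214: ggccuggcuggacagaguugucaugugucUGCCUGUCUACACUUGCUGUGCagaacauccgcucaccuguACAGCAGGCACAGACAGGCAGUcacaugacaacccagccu
In liver at RT, miR-214-5p read 0.60, 0.46, -0.14, 0.42, 1.26, 2.45, 3.19 and 2.37 from 0 to 96 h. It was not detected on any of the 5 parts up to 12 h and was detected on all 3 later ones, which makes it at least 2.53-fold higher late than early, reading the undetected arrays at the lowest detected value of each. The 4 probes moved alike, with at most 0.85 units each up to 12 h and between 2.14 and 3.75 units later. The count of all detected miRNAs on those arrays rose too, from 310 to 576 up to 12 h to 639 to 726 later, and the part of this in the miR-214-5p values was not tested.

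miR-214-5p passed the filter with exactly 5 arrays, these 3 and heart parts of 3 h at 4 °C and 6 h at RT. Because the late liver parts admitted it, no test of its change is given, and its values stand as a description.

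**Figure D5:**
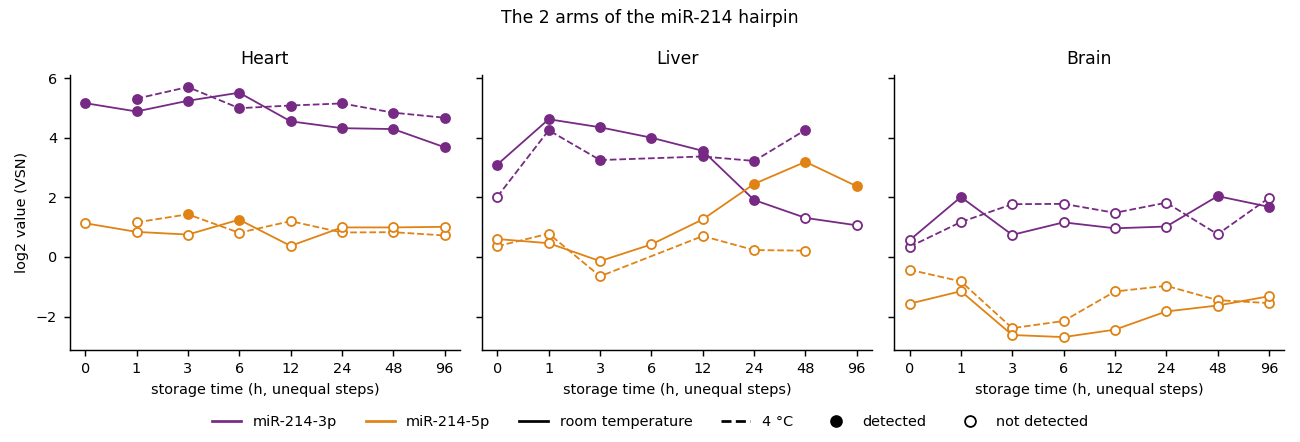
Log2 VSN values (y axis) of miR-214-3p (purple) and miR-214-5p (orange) against storage time in hours (unequal steps) in the 3 tissues, at room temperature (solid) and 4 °C (dashed). Filled points were called detected. In liver at room temperature miR-214-3p is lower, and miR-214-5p detected, from 24 h on. The 2 strands have different probes, so their heights are not comparable.

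The strands of miR-126a, and those of miR-199a, moved less against each other than those of miR-214. Both miR-214 strands were detected on only 1 of the 8 liver arrays at RT. The miR-143 strands were not compared in this way, since miR-143-5p was detected in heart alone. miR-126a-3p minus miR-126a-5p kept within a range of 0.18 log2 on the heart slide at 4 °C and within 1.06 on its widest slides, liver and brain at RT. miR-199a-3p minus miR-199a-5p ranged over 0.12 in heart at 4 °C and over at most 1.13, in liver at 4 °C. The smooth muscle pair, miR-145a-5p minus miR-143-3p, was looser, with ranges of 0.43 in heart at 4 °C, 1.15 in heart at RT and 4.43 in liver at RT. In liver at RT miR-145a-5p was near its detection limit, and the lowest difference, at 6 h, rests on 1 of its probes.

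The other strands of these hairpins and the products of the related miR-126b, miR-145b and miR-199b hairpins were in part dark. miR-145b lies within Gm31088 and miR-199b within Dnm1, apart from the loci of the members. miR-126b-3p, miR-126b-5p, miR-145a-3p and miR-145b were detected on 0 of 45 arrays, and miR-199b-3p is not on the array. miR-143-5p, the second strand of miR-143, was detected on all 15 heart arrays and on no other. This makes it at least 3.39-fold higher in heart than in liver and at least 4.47-fold higher than in brain. Because the heart arrays alone admitted it to the tests, these bounds stand as a description. Its 2 probes followed each other loosely, with a Pearson r of 0.453 over the 45 arrays. In heart at RT miR-143-5p fell by 0.27 ± 0.09 log2 per 24 h (limma adjusted p = 0.0261). The slope of miR-143-3p there was -0.05 ± 0.10 (adjusted p = 0.686), a difference between the strands that was not tested. miR-199b-5p, detected on 44 arrays, was 10.4-fold higher in heart than in liver and 27.2-fold higher than in brain, where miR-199a-5p gave 3.86-fold and 28.3-fold. Like miR-199a-5p it fell at RT, by 0.58 ± 0.15 log2 per 24 h (adjusted p = 0.00133).

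The third question was the relation to RNA integrity. With tissue as a term, 5 of 7 members rose with RIN, beside 35.2% of all 815 miRNAs that did and 45.9% that fell. miR-145a-5p rose by 0.24 ± 0.04 log2 per RIN unit (adjusted p = 1.30e-06), miR-126a-3p by 0.24 ± 0.08 (adjusted p = 0.00554), miR-199a-5p by 0.20 ± 0.06, miR-126a-5p by 0.18 ± 0.07 and miR-199a-3p by 0.17 ± 0.07. miR-143-3p (0.14 ± 0.07, adjusted p = 0.0514) and miR-214-3p (0.08 ± 0.06, adjusted p = 0.183) were not called. Without the liver parts of 24, 48 and 96 h at RT, 1 member was left, miR-145a-5p (0.21, adjusted p = 4.77e-05), and miR-126a-3p dropped to 0.05. Without scaling between arrays the only member called was miR-214-3p, at -0.14 per RIN unit, and the median of all miRNAs was -0.22.

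Within liver, 8 parts with a RIN of 6 or lower were compared with 6 of higher RIN by an exact two-sided Wilcoxon-Mann-Whitney test. None of the 7 was called, and none had an unadjusted p under 0.05, whereas 27.7% of all miRNAs were called, 24.8% of all higher and 2.94% lower at low RIN. For miR-126a-3p the low-RIN parts held 5.02 to 10.91 and the others 8.10 to 10.71, ranges that overlapped. The mean differences ran from -1.10 for miR-145a-5p to -0.07 for miR-214-3p.

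Among 16 further miRNAs linked to vessel or stroma cells, all 16 fell with RT storage, where 37.3% of all miRNAs did. miR-140-5p, a miRNA of cartilage and mesenchymal cells, had the steepest slope (-0.76 ± 0.16 log2 per 24 h, adjusted p = 0.000215), and miR-222-3p, made by endothelial and smooth muscle cells, the shallowest (-0.25 ± 0.09, adjusted p = 0.0138). At 4 °C 0 of 16 were called by limma (12% of all) and 1 had an unadjusted p under 0.05. The RT slope lay below the 4 °C slope for 13 of 16 (28% of all), and 12 of 16 rose with RIN (35.2% of all). Of the 16, 12 were higher and 2 lower in heart than in liver, where 44.9% of all miRNAs were higher. Against brain, 7 were higher in heart (22% of all) and 5 lower, and liver was higher than brain for 5 (14.6% of all) and lower for 9 (57.9% of all). miR-10a-5p was higher in heart than in brain by 3.46 ± 0.25 and miR-218-5p, which neurons also make, was lower by 5.96 on the log2 scale.

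The miRNAs whose log2 values followed the members most closely are given by Pearson's r over the 45 arrays, as a description, since the arrays share tissues and slides. miR-322-5p, another of the 16, was the closest to miR-126a-3p (Pearson r = 0.986), miR-126a-5p (0.984) and miR-143-3p (0.984). miR-223-3p, a miRNA of myeloid cells, was the closest to miR-199a-3p (0.971), miR-199a-5p (0.965) and miR-214-3p (0.925). miR-145a-5p was closest to miR-486a-3p (0.937), a strand of a red blood cell locus, and then to the muscle miRNA miR-1a-3p (0.923). Among the members, miR-199a-3p and miR-199a-5p had r = 0.994 and miR-145a-5p and miR-214-3p r = 0.548.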

How the data were processed

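Total RNA was hybridised to one-colour Agilent mouse miRNA arrays. The deposited scanner files hold background-subtracted intensity per spot, probe and miRNA, made with Agilent Feature Extraction 10.10.1.1 per the file headers. The deposited value table holds log2 values that the authors normalized by VSN over the arrays. Each column followed an asinh curve of that array's scanner signal (largest residual 3.38e-05), with medians of 0.135 to 0.931. In that signal a detected miRNA counts only the probes that the scanner software summed, and an undetected one counts all its probes. The number of probes behind a value can therefore differ between arrays. RNA was isolated without DNase. The labels' 12 h was used where the methods give 14 h.

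Groups came from the labels. Models were fitted with limma 3.58.1 in R 4.3.3 on the VSN values of 815 miRNAs detected on at least 5 of 45 arrays, with Benjamini-Hochberg adjustment over all 815 and a threshold of 0.05. RIN, RT hours and 4 °C hours had tissue as a term, the difference of slopes had the slide, and tissue contrasts had the slide as a random block (within-slide correlation 0.0203). The liver comparison used an exact Wilcoxon-Mann-Whitney test. The tests were checked on simulated data, other than the pairwise tissue slopes, which came from one fit with a slope per tissue.

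Named miRNAs were the 7 members, the other products of their loci and those of miR-126b, miR-145b and miR-199b. At most 4 of the 16 further miRNAs and the 2 closest by Pearson r per member were named too. miR-122-5p, a marker of the hepatocyte list, was named beside them after its values were seen. The members, the lists and some tests were chosen with earlier results of these data known. Alternatives were scaling by the 75th percentile (of all miRNAs or of those detected on every array), quantile normalization, no scaling, normexp with an offset of 50 on median spot and background signals (the mean spot signal was not used here), other detection filters, other covariates and left-out arrays or slides. Signals under 1 unit were set to 1 before log2 in the scaled alternatives. Precision is limited by the number of arrays. RefSeq sequences were matched by name, 8 of 15 names having a mature entry printed or compared here.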

Additional observations from a re-analysis of the deposited data

Results flagged for a closer look

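Dixon's gap test was run for each member on each slide, 42 sets in all, and 6 had an extreme array. The usual rate of about 1 in 20 sets does not apply as it stands. Sets of a slide share their arrays, and values can trend with time. On the liver slide at 4 °C the 0 h array stood far below the rest for miR-143-3p (gap over range 0.812, 4.28 against 6.25 to 6.71), miR-199a-5p (0.748, 4.24 against 5.42 to 5.82), miR-199a-3p (0.708, 5.05 against 6.97 to 7.76) and miR-126a-3p (0.659, 8.10 against 9.82 to 10.71). miR-145a-5p was low in heart at RT at 96 h (0.531, 5.68 against 6.53 to 7.29), and miR-126a-5p was low in heart at 4 °C at 6 h (0.569, 7.88 against 8.18 to 8.41).

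The RT slope differed between tissues for 6 members. The moderated F statistic was 17.23 for miR-126a-3p, 13.40 for miR-143-3p, 12.73 for miR-126a-5p, 11.99 for miR-199a-3p, 11.21 for miR-199a-5p and 10.13 for miR-214-3p. The RT and 4 °C slopes differed for 5, by -0.77 log2 per 24 h for miR-126a-3p, -0.64 for miR-126a-5p, -0.54 for miR-143-3p, -0.52 for miR-199a-3p and -0.47 for miR-199a-5p.

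All 7 members were detected on the heart array of 0 h at 4 °C that was left out. It read 8.34 for miR-126a-3p, where the other heart arrays at 4 °C read 12.17 to 12.61, and 5.16 for miR-143-3p, where they read 8.86 to 9.31.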

How the results depend on the processing

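The counts of members called that stayed within 1.5 times under every alternative run were those of heart minus liver and heart minus brain (7 each), liver minus brain (5 of 7, and 4 to 7 elsewhere) and the RT slope between tissues (6 of 7, and 5 to 6 elsewhere). Of 945 values of single members under alternatives, 824 kept their direction and side of the threshold or were uncalled in both, 75 lost the call, 26 gained one and 20 reversed. The alternatives that left out all liver arrays, the liver 0 h arrays or the late liver RT arrays, and the block on the animal, were chosen after seeing the data. The cause of each change was not tested. Over all miRNAs, the calls for 4 °C hours (98) ranged from 0 (liver alone) to 206 (log2 hours), for the RT slope between tissues (200) up to 321 (normexp), for liver RIN groups (226) from 0 (without the liver 0 h arrays, or limma with the slide as a block) to 489 of 1881 without a detection filter, and for RIN (661) from 2 (RIN above 6) to 1425 of 1881. Without that filter RT hours had 1277 calls (638), the RT minus 4 °C slope 691 (429), heart minus brain 1098 (563) and liver minus brain 1244 (591). Heart minus liver (445) fell to 250 over all arrays whatever their RIN, heart minus brain to 344 likewise, and RT hours to 358 in liver alone.

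Members called with RIN numbered 5, all rising. The count was 1 with no scaling between arrays (falling, so that 0 rose), 2 with normexp, 3 with the heart 0 h array at 4 °C, 2 with the slide as a fixed block, 0 over RIN above 6 only, 1 in liver alone, 1 without the liver RT slide, 3 without the brain RT slide and 1 without the liver RT parts of 24, 48 and 96 h. With no scaling the slope per RIN unit reversed for miR-126a-5p (-0.0253), miR-199a-3p (-0.0433), miR-199a-5p (-0.0027) and miR-214-3p (-0.144). Over RIN above 6 it reversed for miR-126a-3p (-0.247), miR-126a-5p (-0.341), miR-199a-3p (-0.227) and miR-199a-5p (-0.0257), and without those 3 liver parts for miR-199a-3p (-0.00731).

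For RT hours the 7 became 1 with no scaling, 2 without a tissue term, 2 in brain alone and 2 in heart alone. The slope per hour reversed with no scaling for miR-145a-5p (0.00109) and miR-214-3p (0.000674), and in brain alone for miR-214-3p (0.00829). For 4 °C hours the 0 became 1 with quantile normalization. For the RT minus 4 °C slope the 5 became 0 with no scaling, 3 with normexp and 2 without liver. For liver RIN groups the 0 became 2 with scaling to miRNAs detected on all arrays.

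Liver minus brain reversed with that scaling for miR-126a-3p (0.63) and miR-143-3p (0.112), with 75th percentile scaling over all miRNAs (0.82 and 0.305), and with quantile normalization for miR-126a-3p (1.43), miR-143-3p (1.15) and miR-145a-5p (0.181). With no scaling miR-126a-5p reversed (-0.526). Over all arrays used, miR-214-3p was detected on 3 of 16 in brain and 11 of 14 in liver. miR-145a-5p was detected on 16 of 16 in brain and 10 of 14 in liver. The labels give each group the replicate number 1 only. By the methods the 3 organs at a temperature came from one animal, and with the animal as a replicate block the tissue contrasts called 7, 7 and 5 members and no call of a single member changed.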
